A study of Rattus norvegicus with 12 samples.

Results

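The rows described here are the well-measured members of the long noncoding RNA (lncRNA) biotype in RNA sequencing of rat joint tissue. They were taken from the table that sets treatment against sham: 272 rows carry the biotype lncRNA and a mean normalised value of at least 100 over its 8 libraries. That is 15.4% of the 1764 lncRNA rows and 1.20% of the 22581 rows in the table. The same gene IDs were then followed in the tables of treatment against model and of model against sham. The rows were thus chosen by their values in the treatment and sham libraries, and treatment against sham is given as a description. Treatment against model shares the treatment libraries with this choice, and model against sham the sham libraries. A row very low in treatment passed only if sham was high, and the reverse. Shares of rows called in those comparisons, set beside all genes, carry this limit. The 3 members just inside the threshold had means of 101, 102 and 103, and the 3 lncRNA rows just outside it had means of 99.6, 99.2 and 98.7.

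The study holds 12 libraries, 4 each labelled treatment, model and sham. Its title names acupuncture around the knee and knee osteoarthritis, a disease in which joint cartilage is lost. The labels describe the groups no further and state neither strain nor age, nor how the model was made, what the sham rats went through or what the treated rats received. Separate animals per library are not stated either, and the spread behind every p-value is that of these libraries, possibly technical. Recovered whole reads came to between 15513116 and 17218402 per library.

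LncRNAs are transcripts that are not translated into a known protein. Some act on chromatin or splicing in the nucleus, some are precursors that are cut into microRNAs or snoRNAs, and many have no known function. A microRNA pairs through its seed, the bases near its 5′ end, with sites in messenger RNAs and lowers their output. An lncRNA row in an annotation can also be a stretch of a longer messenger RNA, such as an extended 3′ end, that was annotated as a gene of its own.

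The biotype was checked against the names and protein descriptions in the same table and against RefSeq (GRCr8). Of the 272 rows, 213 had no protein match, 55 had a match to a known protein and 4 a match to the ORF2 protein of LINE-1, a retrotransposon. Among the 37 rows with a gene symbol, 36 have a symbol that RefSeq lists as protein-coding and 1, Lnc134, is listed as lncRNA. The 36 include Gpx3, a secreted glutathione peroxidase; Rhob, a small GTPase; Rpl30, a ribosomal protein; and Cebpa, a transcription factor of fat and myeloid cells. The 55 are therefore spoken of as rows with a protein match, and the whole set as lncRNA-biotype rows. A match names a related protein and does not show which gene the row is: 47 of the 55 have no coding row of the same symbol in the table, while 8 do, among them the row matched to Aurka, a mitotic kinase whose coding row lies on another chromosome. A further 216 rows carry only an Ensembl ID, 16 a locus number and 3 a clone name. Of the 16 locus numbers, 14 were found in RefSeq by gene ID and all 14 are lncRNA there. No row carried the symbol of a widely studied lncRNA such as Malat1, Neat1, Meg3, Xist or Gas5.

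Positions of microRNAs in GRCr8 gave an identity to a few rows. LOC120099372 holds the miR-223 gene, a microRNA of neutrophils and other myeloid cells, and LOC120098113, listed in RefSeq as Carmn, holds the genes of miR-143 and miR-145, microRNAs of smooth muscle and other contractile cells. Their mature sequences from RefSeq are printed here because LOC120099372 had the most reads of all rows that were lower in treatment than in model; capitals mark the seed, bases 2 to 8.
rno-miR-223-3p: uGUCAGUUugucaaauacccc
rno-miR-223-5p: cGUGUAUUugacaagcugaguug
rno-miR-143-3p: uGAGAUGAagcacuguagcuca
rno-miR-145-5p: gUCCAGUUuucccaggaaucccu
The 4 seeds differ from each other. The libraries measured gene rows and not mature microRNAs, so the level of a host row is no measure of its microRNA.

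RefSeq promoter windows, 250 bases before to 50 after a gene's start, were matched for 44 of the 272 rows by symbol or gene ID. They are shown for 2 rows that were lower in all treatment libraries, LOC120099372 (chrX:65147221-65147520 of GRCr8, plus strand, the first of its 2 windows) and Gng10 (chr5:78650917-78651216 of GRCr8, plus strand); capitals mark a motif.
LOC120099372: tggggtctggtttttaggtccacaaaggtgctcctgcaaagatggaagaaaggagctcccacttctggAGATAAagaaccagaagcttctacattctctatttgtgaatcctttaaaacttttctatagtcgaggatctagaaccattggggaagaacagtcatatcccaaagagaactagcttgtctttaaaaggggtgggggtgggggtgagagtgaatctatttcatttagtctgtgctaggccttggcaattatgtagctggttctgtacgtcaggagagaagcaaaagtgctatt
Gng10: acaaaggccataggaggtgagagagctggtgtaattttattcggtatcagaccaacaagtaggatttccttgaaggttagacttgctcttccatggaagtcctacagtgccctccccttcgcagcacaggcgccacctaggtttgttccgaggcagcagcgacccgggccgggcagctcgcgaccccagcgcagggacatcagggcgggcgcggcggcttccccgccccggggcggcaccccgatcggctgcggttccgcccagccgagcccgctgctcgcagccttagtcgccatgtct
Each window was searched on both strands for the E-box CACGTG, the AP-1 site TGACTCA, the site AGATAA bound by zinc-finger factors of blood cells and endothelium, and the core promoter element TATAAA, which do not overlap here. LOC120099372 had 1 AGATAA in each of its 2 windows, Mafk had 1 CACGTG, and the windows of Gng10, Adig, Rnf26 and LOC102549328 had none of the 4. Over 33469 promoters of the same length, AGATAA is in 11.6%, CACGTG in 6.42%, TGACTCA in 4.63% and TATAAA in 14.2%. A match describes letters only.

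Libraries differed in ways that bear on every comparison, and these values are given before the results. Summed CPM (counts of reads scaled to a common library total) of 11 skeletal muscle markers were 110, 41665, 364 and 3261 in treatment 1 to 4, between 59.2 and 719 in model, and 7874, 32130, 1420 and 28458 in sham 1 to 4. Treatment 2, sham 2 and sham 4 are thus rich in muscle RNA. Summed CPM of 12 neutrophil markers ran over 9.47 to 221 in treatment, 4149 to 15229 in model and 15126 to 25904 in sham, and 11 of the 12 fell in treatment against model. All 11 erythroid markers fell (319 to 4221 CPM in treatment, 44527 to 72238 in model, 35395 to 56332 in sham), as did all 8 markers of dividing cells (61.6 to 135 CPM in treatment, 609 to 2752 in model and 1115 to 1974 in sham) and 6 of 8 B cell markers (75.1 to 105 CPM in treatment, 245 to 455 in model and 299 to 542 in sham). Of 10 fibroblast markers 3 rose (52983 to 128242 CPM in treatment, 18898 to 48460 in model and 10379 to 28039 in sham). The remaining lists had few or no calls: 0 of 11 muscle, 0 of 6 endothelial, 1 of 10 cartilage (higher) and 1 of 7 osteoblast markers (lower), and no marker of any list was at 0 in all libraries. In bulk tissue, fewer cells of a type and less RNA per cell cannot be told apart.

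The rows lay close to coding genes, mostly next to a 3′ end. None of the 272, and none of the 1764 lncRNA rows, overlapped a coding row, against 3836 of 18341 coding rows (20.9%). The median gap to the closest coding gene was 1260 bases for the 272 rows, 3357 for lncRNA rows under the threshold and 8020 for coding rows that overlap no other. The gap was at most 1000 bases for 119 rows and at most 5000 for 215 (79.0%), and it was over 100000 for 6. Of the 215, 91 (42.3%) lay on the same strand after the 3′ end of the coding gene and 82 (38.1%) on the opposite strand with the 3′ ends facing. Only 23 (10.7%) lay before the 5′ end on the same strand and 19 (8.84%) on the opposite strand with 5′ ends facing. Of 5727 coding rows within 5000 bases of another, the same shares were 18.2%, 36.6%, 21.0% and 24.1%; the difference was not tested. Whether strand was used in counting is not given in the sources used here. Reads that run past the annotated 3′ end of a coding gene therefore cannot be told apart from reads of a separate transcript there.

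**Figure D1:**
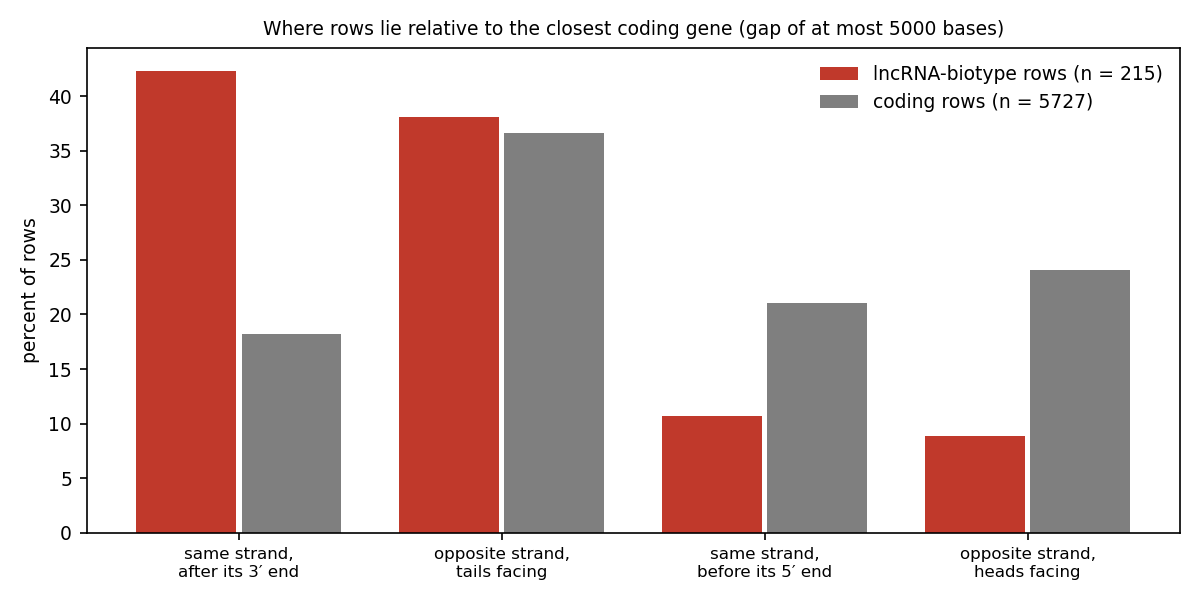
Percent of rows (vertical axis) by place relative to the closest coding gene, for the 215 lncRNA-biotype rows (red, left bars) and 5727 coding rows (grey, right bars) within 5000 bases of a coding gene. The bars of the lncRNA-biotype rows stand at 42.3% after a 3′ end and 8.84% for 5′ ends facing, against 18.2% and 24.1% for coding rows.

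Overlap with other noncoding rows was more common: 43 of the 272 overlapped some other row, 36 of them another lncRNA row, 34 of these on the opposite strand. In counts that may share rows, 6 overlapped a snoRNA row, 3 a pseudogene row and 1 the row of Mir1949. Where strand was not used, reads of these 34 rows and of their partners cannot be told apart.

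Together the rows took a small and similar share of the reads. Their reads made up 0.853%, 0.728%, 0.698% and 0.742% of treatment 1 to 4, 0.748%, 0.805%, 0.770% and 0.736% of model 1 to 4, and 0.656%, 0.695%, 0.743% and 0.736% of sham 1 to 4. The groups overlap. The means were 0.755 ± 0.068% in treatment, 0.765 ± 0.030% in model and 0.707 ± 0.040% in sham (SD, n = 4 each). Per 1000 bases of length, the highest mean values over the treatment and sham libraries were 2149 for Prelid1, a lipid carrier of mitochondria, 2073 for ENSRNOG00000064136, 1613 for Timm13, a chaperone of mitochondrial import, 1442 for Gpx3 and 1410 for Rhob. Only ENSRNOG00000064136 of these 5 has no protein match. It also has the highest mean value of all 272, 4517.

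Treatment against model was tested in its own table of 8 libraries with limma on log2(value + 1), with each log2 fold change being the mean of treatment minus that of model on that scale, ± SE. At an adjusted p under 0.05 over all genes, 4 of the 272 rows rose and 18 fell. That is 1.47% and 6.62% of the rows, while over all 20328 genes tested 3.6% rose and 10.5% fell. Of 1172 lncRNA rows under the level threshold, 1.11% rose and 5.03% fell. The median log2 fold change was 0.10 for the 272 rows, 0.02 for all genes and -0.08 for the lncRNA rows under the threshold. In 20 rows every treatment library was above every model library and in 25 below, which is 7.35% and 9.19%, against 8.51% and 13.7% of all genes. By annotation, the 4 that rose were among the 213 rows with no protein match (1.88%), and the 18 that fell were 9 of those 213 (4.23%), 7 of the 55 rows with a protein match (12.7%) and 2 of the 4 LINE-1 rows. DESeq2 called 17 of the 213 (7.98%) and 3 of the 55 (5.45%) higher, and 20 (9.39%) and 7 (12.7%) lower. The difference between these classes was not tested. Single libraries decide the count that rose. It was 0 without treatment 3, treatment 4, model 1 or model 4 (0.89%, 1.43%, 1.39% and 0.457% of all genes in those fits), 1 without treatment 1 (1.45%), 2 without treatment 2 (3.71%) and 3 without model 3 (2.22%). edgeR called 3 and 16 (2.7% and 9.42% of all genes) and DESeq2 20 and 29 (9.45% and 14.9%). Without model 2, 18 rose and 29 fell by limma (6.68% and 13.7% of all genes in that fit), and 11 fell without model 3, model 4 or treatment 3 (7.07%, 5.3% and 6.86%). The count that fell was 12 without model 1 (6.69%), 13 without treatment 4 (7.88%), 14 without treatment 1 (7.41%) and 17 without treatment 2 (8.96%).

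The 2 largest rises were in rows next to collagen genes. ENSRNOG00000064136 (chr3:11354747-11357054, plus strand, of mRatBN7.2) starts 159 bases after the 3′ end of Col5a1, the α1 chain of fibrillar type V collagen, on its strand. It had 788, 225, 499 and 335 CPM in treatment 1 to 4, 76.9, 211, 219 and 115 CPM in model 1 to 4 and 88.3, 54.4, 51.8 and 65.8 CPM in sham 1 to 4. All treatment libraries were above all model libraries, although treatment 2 was close to model 2 and 3. The log2 fold change was 1.71 ± 0.45 (limma adjusted p = 0.0389). Col5a1 itself had 1877, 472, 1751 and 1117 CPM in treatment, 211, 601, 632 and 352 in model and 344, 175, 167 and 152 in sham, a log2 fold change of 1.64 ± 0.49 with an adjusted p of 0.0572. The call on ENSRNOG00000064136 was lost on leaving out any one of model 1, model 4, treatment 1, treatment 3 and treatment 4 (adjusted p up to 0.116).

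ENSRNOG00000064142 (chr11:42908366-42909428, plus strand) lies 1942 bases after the 3′ end of Col8a1, a short-chain collagen of vessel and other matrices. It had 106, 24.0, 60.9 and 71.2 CPM in treatment, 9.60, 22.7, 27.2 and 17.8 CPM in model and 2.70, 5.69, 9.34 and 7.14 CPM in sham. In CPM treatment 2 lay among the model libraries and the other treatment libraries above them; on the normalised values that were tested, the groups do not overlap. The log2 fold change was 1.83 ± 0.46 (limma adjusted p = 0.0316), and the call was lost on leaving out any one of model 1, model 4, treatment 1, treatment 3 and treatment 4 (adjusted p up to 0.0911). Col8a1 had 158, 31.9, 148 and 159.7 CPM in treatment and 17.6, 42.7, 51.8 and 45.6 in model, with a log2 fold change of 1.68 ± 0.54 (adjusted p = 0.0703). Fibroblast markers, summed above, were also highest in treatment; their part in both rows was not tested.

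The other rises were ENSRNOG00000063339, which lies 1385 bases after the 3′ end of Foxn3, a forkhead repressor, and ENSRNOG00000068511, which lies 19840 bases after Eomes, a T-box factor of lymphocytes. The Foxn3 row had 39.9, 57.1, 32.6 and 32.8 CPM in treatment, 20.6, 30.4, 25.5 and 23.4 in model and 15.6, 27.1, 14.6 and 27.4 in sham. Its log2 fold change of 0.84 ± 0.24 had an adjusted p of 0.0498, and Foxn3 rose too, by 0.69 ± 0.14 (adjusted p = 0.0167). The Eomes row had 6.29, 7.99, 5.87 and 8.11 CPM in treatment, 3.42, 4.17, 5.31 and 4.12 in model and 4.30, 6.71, 5.27 and 8.20 in sham. It changed by 0.89 ± 0.25 (adjusted p = 0.0459), while Eomes fell by 2.43 ± 0.64 on the log2 scale (adjusted p = 0.0391). Eomes itself had few reads, with 0.121, 0, 0 and 0.237 CPM in treatment and 0.451, 0.736, 0.437 and 0.983 in model. The size of its fold change therefore depends on the pseudocount. Both rows are just past the threshold: the Foxn3 row kept its call only without model 2, and the Eomes row kept it in none of the 8 fits that leave out a library (adjusted p up to 0.135 and 0.123).

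Of the rows that fell, LOC120099372, which holds miR-223, had the most reads. It lies 343 bases from Vsig4, a complement receptor of tissue macrophages, with the 3′ ends facing (chrX:61138374-61144585, plus strand). It had 15.0, 13.7, 13.5 and 12.2 CPM in treatment, 355, 74.9, 198 and 229.6 CPM in model and 152, 299, 383 and 327 CPM in sham. The treatment libraries lie close together and far below the others, and model 2 is the lowest of the model libraries. The log2 fold change was -3.62 ± 0.42 (limma adjusted p = 0.00206), kept in all 8 fits that leave out a library (adjusted p up to 0.0120). Vsig4 did not pass the test: it had 39.0, 57.6, 62.6 and 2.54 CPM in treatment and 11.8, 18.2, 76.2 and 26.7 in model (log2 fold change 0.09 ± 1.05, adjusted p = 0.963), with a sign that turned without any one of model 1, model 2, treatment 1, treatment 2 and treatment 3. The neutrophil markers, 9.47 to 221 CPM in treatment and 4149 to 15229 in model, moved with this row, and their part in it was not tested. LOC120098113, the row of miR-143 and miR-145, had 20.0, 24.3, 14.6 and 20.9 CPM in treatment, 3.61, 47.5, 15.1 and 27.0 in model and 19.5, 4.37, 4.58 and 4.57 in sham, with overlapping treatment and model groups and a log2 fold change of 0.43 ± 0.68 (adjusted p = 0.706). Its sign rests on model 1 and on the tool: the value was -0.28 without model 1 and -0.050 by edgeR.

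The 4 lowest fold changes belonged to rows that were low in all treatment libraries. These rows passed the level threshold through their sham libraries. ENSRNOG00000062599, which matches LINE-1 ORF2, had 0.0605, 0.122, 0.581 and 0.237 CPM in treatment, 15.8, 3.19, 6.68 and 10.7 in model and 21.6, 1.50, 27.3 and 8.90 in sham (log2 fold change -4.80 ± 0.66, adjusted p = 0.00290). ENSRNOG00000065287 lies 51394 bases from Bach2, a repressor of B cell maturation, with 5′ ends facing, and had 0.242, 1.53, 0.232 and 0.0592 CPM in treatment, 17.5, 11.5, 11.3 and 6.57 in model and 5.59, 10.5, 12.9 and 22.2 in sham. It fell by 4.79 ± 0.77 on the log2 scale (adjusted p = 0.00569). In both rows every treatment library lay below every model and every sham library. Bach2 fell too (-2.91 ± 0.47, adjusted p = 0.00614), as did 6 of 8 B cell markers.

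ENSRNOG00000068486, which matches the ribosomal protein RPS24, had 0.181, 0.305, 0.465 and 0.118 CPM in treatment, 8.70, 3.50, 5.24 and 12.8 in model and 13.3, 8.27, 15.4 and 20.2 in sham (-4.34 ± 0.53, adjusted p = 0.00219). ENSRNOG00000063760, 8015 bases after Tamalin, a scaffold protein of receptor trafficking, had 0.484, 4.03, 1.22 and 0.592 CPM in treatment, 45.9, 9.57, 27.0 and 32.1 in model and 25.5, 30.4, 28.6 and 30.7 in sham (-4.26 ± 0.73, adjusted p = 0.00742). In both rows every treatment library was below every model and every sham library. Their closest coding genes gave 0.43 ± 0.18 for Ctsh, a lysosomal protease (adjusted p = 0.149), and -0.11 ± 0.26 for Tamalin (adjusted p = 0.812, and a fold change of 0.12 without model 2), neither past the threshold. All 4 rows kept their call in each of the 8 fits that leave out a library, and with a pseudocount of 5. With treatment values this low, the size of their fold changes depends on the pseudocount.

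**Figure D2:**
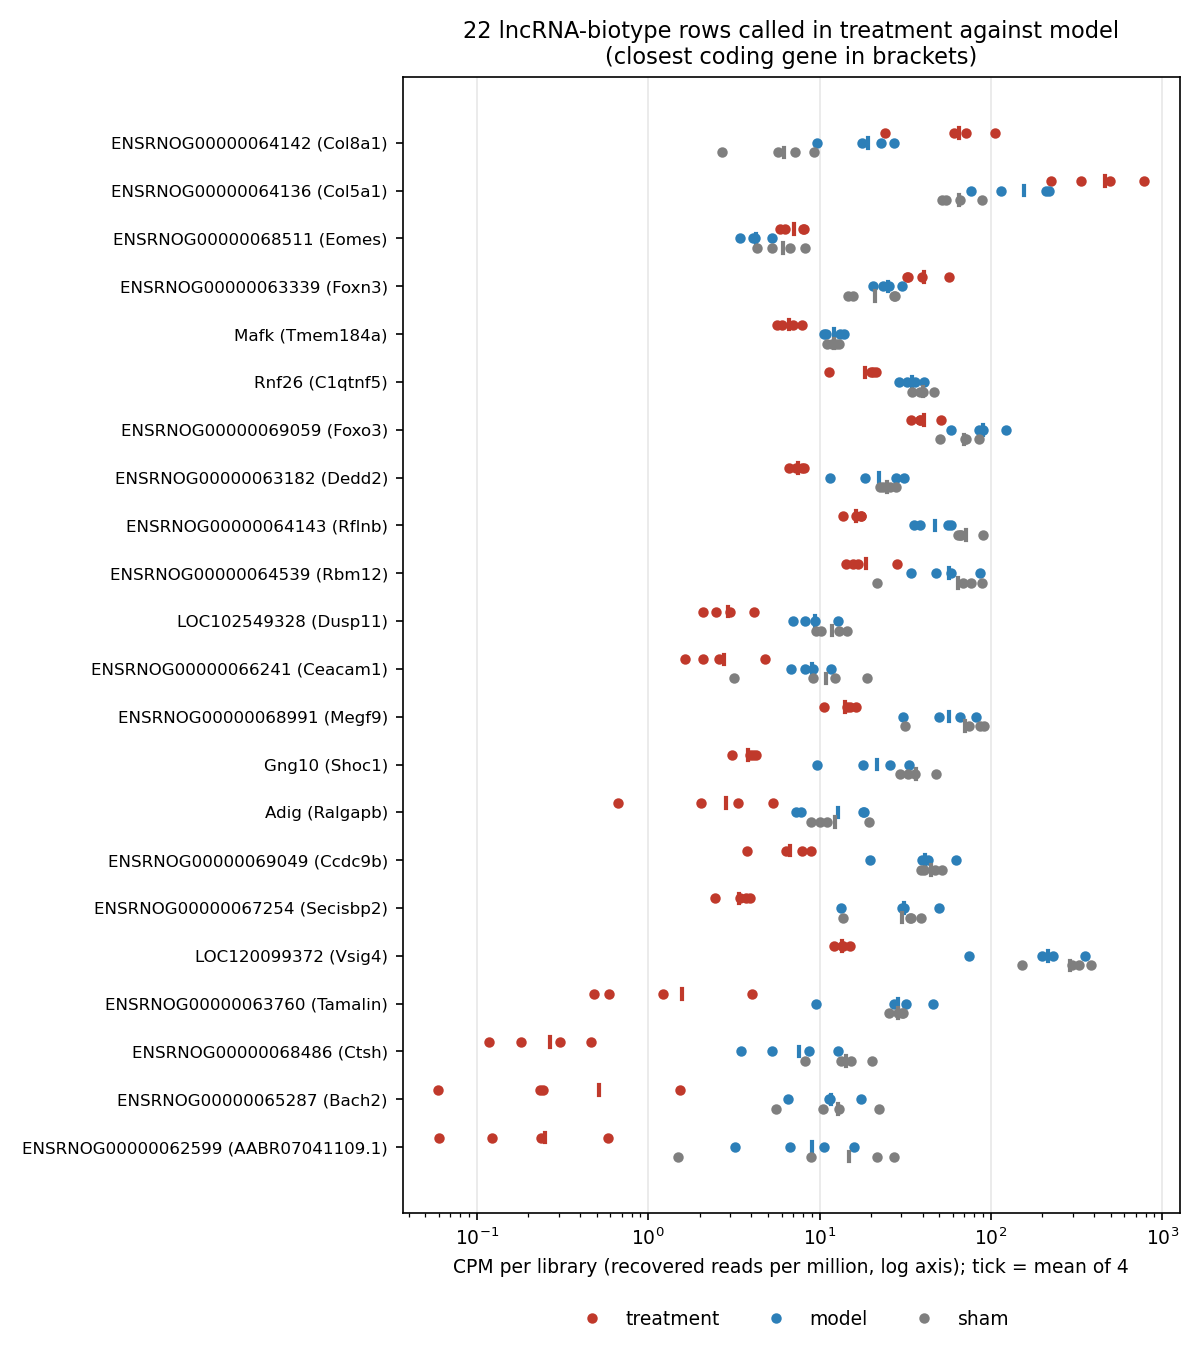
CPM per library on a log axis (horizontal) for the 22 rows called in treatment against model, from the highest log2 fold change at the top to the lowest at the bottom, with the closest coding gene in brackets; red points are treatment, blue model and grey sham libraries, and short lines are group means. The 18 rows that fell have all treatment points left of all model points.

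Rows with a protein match were read by the role of that protein. The row matched to Cks2 (ENSRNOG00000067254), a cofactor of cyclin-dependent kinases, had 3.45, 2.44, 3.95 and 3.73 CPM in treatment, 49.8, 13.4, 30.3 and 31.1 in model and 13.7, 33.8, 34.4 and 38.9 in sham. It fell by 2.90 ± 0.38 on the log2 scale (adjusted p = 0.00259), beside the 8 markers of dividing cells that fell; their part was not tested. The other row with a cell-cycle match, to Aurka, had a log2 fold change of 0.65 ± 0.27 (adjusted p = 0.139). That row lies 963 bases after the 3′ end of the coding gene Abcc1, which rose by 0.76 ± 0.20 (adjusted p = 0.0398). The row matched to INAFM2 (ENSRNOG00000069049) had 6.35, 3.78, 8.89 and 7.93 CPM in treatment, 62.6, 19.8, 39.5 and 42.9 in model and 40.5, 47.1, 39.2 and 51.5 in sham (-2.40 ± 0.38, adjusted p = 0.00515). Adig, adipogenin of fat cells, had 0.665, 3.36, 2.03 and 5.38 CPM in treatment, 7.80, 17.9, 7.31 and 18.2 in model and 19.5, 10.1, 8.90 and 11.1 in sham (-2.19 ± 0.62, adjusted p = 0.0477). None of these groups overlap between treatment and model. The calls on the Cks2 and INAFM2 rows were kept in all 8 fits that leave out a library, while that on Adig was kept only without treatment 4 (adjusted p up to 0.138).

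The remaining 3 calls with a protein match are named after their values were seen. Gng10, a γ subunit of heterotrimeric G proteins, had 3.93, 4.27, 3.08 and 4.08 CPM in treatment, 33.2, 9.63, 18.0 and 25.9 in model and 33.0, 36.0, 48.0 and 29.6 in sham. It fell by 2.19 ± 0.38 on the log2 scale (adjusted p = 0.00738), and the call held without each library in turn. Rnf26, a ubiquitin ligase, and Mafk, a small Maf transcription factor, fell by less than 1 on that scale (-0.79 ± 0.21 and -0.70 ± 0.20, adjusted p = 0.0393 and 0.0479). Rnf26 had 20.0, 11.4, 21.3 and 20.6 CPM in treatment and 40.7, 29.3, 32.5 and 36.1 in model, without overlap. Both lost the call when most single libraries were left out (adjusted p up to 0.112 and 0.146). By role, 0 of 7 rows matched to mitochondrial proteins (log2 fold changes between -0.24 and 0.43), 1 of 4 of ribosome and RNA handling (RPS24), 1 of 4 small GTPases and G protein subunits (Gng10), 1 of 3 transcription factors (Mafk), 1 of 5 ubiquitin-related rows (Rnf26) and 0 of 2 selenoproteins fell, and none rose.

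A group of 6 rows that fell, also picked out after their values were seen, lies within 1000 bases of a coding gene that fell as well. These coding genes are Rflnb, a filamin regulator, Rbm12, an RNA-binding protein, Foxo3, a forkhead factor of stress responses, Megf9, a membrane protein with EGF-like domains, Dedd2, a death-effector protein, and Tmem184a, which lies 184 bases from Mafk. The row 951 bases after Megf9 (ENSRNOG00000068991) had 15.1, 10.6, 14.5 and 16.3 CPM in treatment, 82.2, 30.8, 49.9 and 66.1 in model and 31.7, 74.3, 86.5 and 91.7 in sham. Megf9 had 14.5, 11.5, 25.3 and 27.6 CPM in treatment, 114, 45.3, 88.4 and 123 in model and 139, 142, 185 and 124 in sham, so both were below model and sham in every treatment library. The row fell by 1.78 ± 0.29 and Megf9 by 2.06 ± 0.37 on the log2 scale (adjusted p = 0.00614 and 0.00853). The row beside Foxo3 had 51.3, 34.0, 38.7 and 38.3 CPM in treatment and 123, 58.8, 85.2 and 90.2 in model, without overlap. Beside Foxo3 the row (ENSRNOG00000069059, 418 bases, 3′ ends facing) fell by 0.95 ± 0.24 and Foxo3 by 1.26 ± 0.28 (adjusted p = 0.0328 and 0.0216). Beside Rflnb the row (ENSRNOG00000064143, 254 bases, 3′ ends facing) fell by 1.35 ± 0.20 and Rflnb by 1.26 ± 0.16 (adjusted p = 0.00424 and 0.00260). The Rbm12 row fell by 1.41 ± 0.33 and Rbm12 by 1.62 ± 0.25 (limma adjusted p = 0.0249 and 0.00489). The Dedd2 row fell by 1.31 ± 0.31 and Dedd2 by 1.86 ± 0.30 (limma adjusted p = 0.0270 and 0.00569). The sizes differed most for Mafk, at 0.70 ± 0.20, and Tmem184a, at 4.92 ± 0.79. Tmem184a had 0 to 0.671 CPM in treatment. The Rflnb and Megf9 rows kept the call without each library in turn. The Foxo3 row lost it on leaving out any one of model 1, model 3, model 4, treatment 2, treatment 3 and treatment 4 (adjusted p up to 0.0963). The Rbm12 and Dedd2 rows also lost it when most single libraries were left out (limma adjusted p up to 0.0727 and 0.0921).

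**Figure D3:**
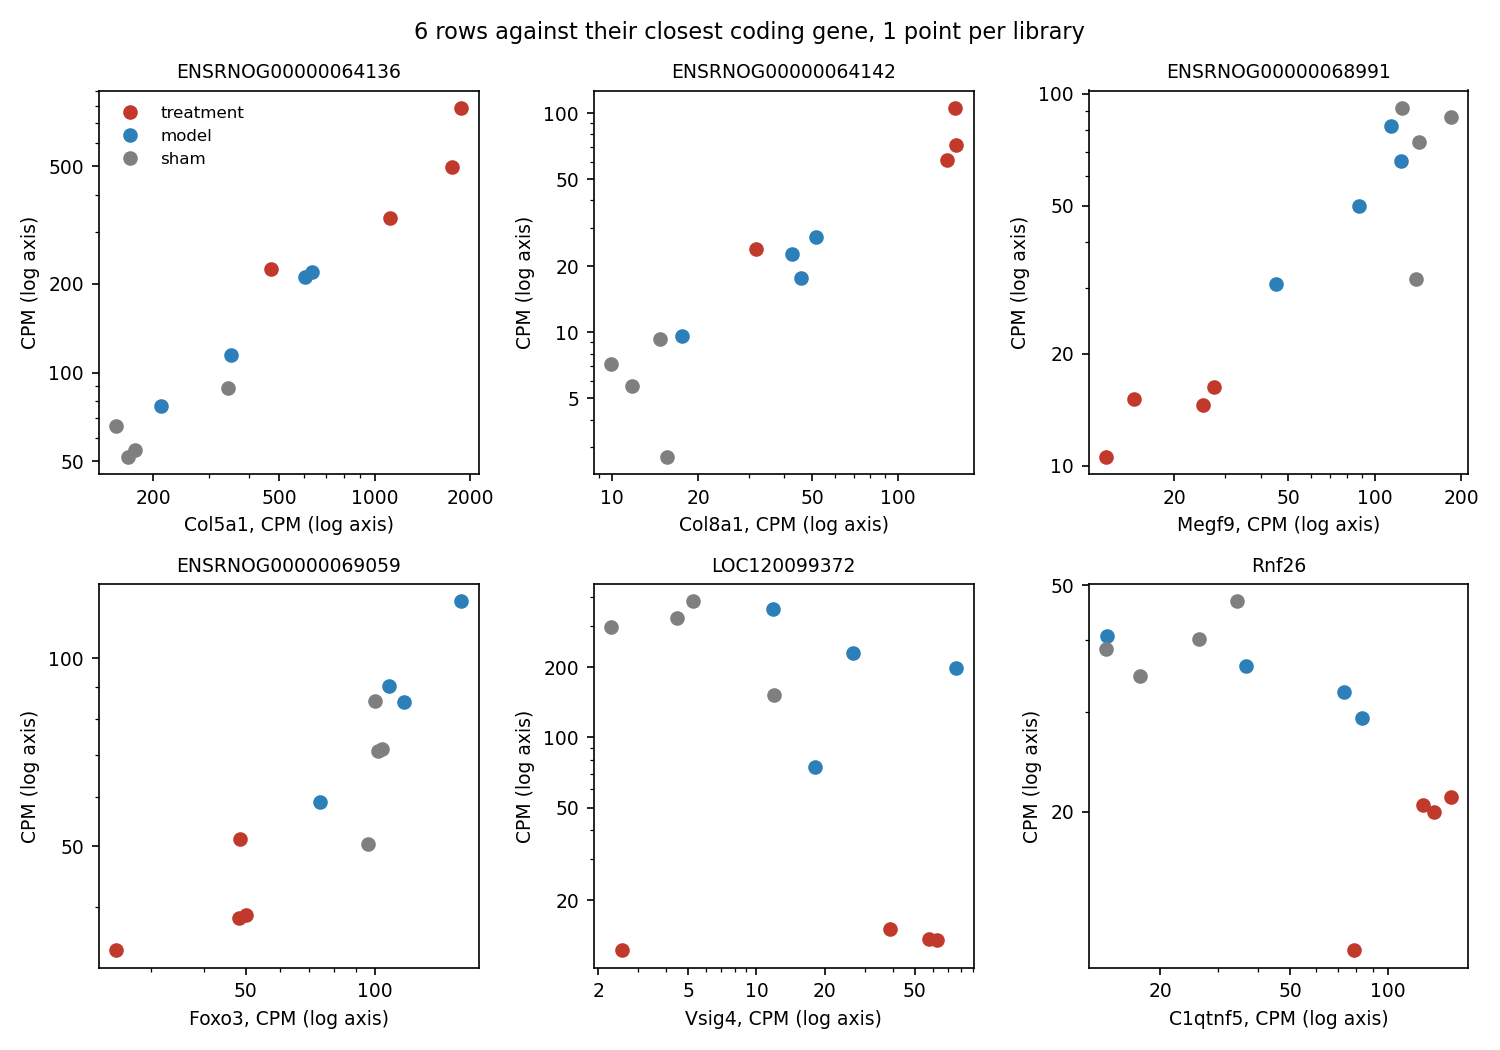
CPM of 6 rows (vertical, log axis) against CPM of their closest coding gene (horizontal, log axis), 1 point per library; red is treatment, blue model and grey sham. Points run upward together for the rows beside Col5a1, Col8a1, Megf9 and Foxo3, while in the panels of LOC120099372 and Rnf26 the treatment points lie lowest and do not follow Vsig4 or C1qtnf5.

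Over all 22 called rows, 14 had their closest coding gene within 5000 bases; 11 of these coding genes had the same sign of log2 fold change and 7 passed the test with it. For the 9 of the 14 with no protein match the numbers were 8 and 6, LOC120099372 being the exception in direction. Conversely, 29 of the 215 rows within 5000 bases lay beside a coding gene that passed the test. Of all coding rows tested, 3.99% rose and 10.6% fell. Of the 29 rows, 23 had the same sign as their coding gene, 7 of them past the test. A matching share over pairs of coding rows was not computed. None of the 14 faced its coding gene with the 5′ end, where only 19 of the 215 rows (8.84%) do.

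All rows were then compared with a neighbour, whether called or not. Against the coding gene with the nearest start within 100000 bases, 164 of 248 rows (66.1%) had the same sign of log2 fold change in treatment against model, and 7761 of 13623 coding rows (57.0%) had the sign of theirs. Taking the closest gene body in place of the nearest start, a choice made after the data were seen, gave 192 of 263 (73.0%), and 6584 of 11761 coding rows (56.0%). By place, 70 of 91 rows after a 3′ end (76.9%), 64 of 82 with 3′ ends facing (78.0%), 17 of 23 before a 5′ end (73.9%) and 10 of 19 with 5′ ends facing (52.6%) shared the sign. The same shares over coding rows were 57.7%, 54.6%, 57.6% and 56.3%. These differences were not tested, since neighbouring genes are not independent samples.

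By nearest start in treatment against model, log2 fold changes of row and neighbour correlated at 0.19 across 248 rows (Pearson). Across 13623 coding rows the value was higher, 0.31. By closest gene body it was 0.39 across 263 rows and 0.28 across 11761 coding rows. By place relative to the closest gene body, the correlation was highest where the row had no protein match and lay behind a coding gene. Across 79 such rows the Pearson correlation of the log2 fold changes of row and neighbour was 0.89 in treatment against model, and 63 of the 79 (79.7%) shared the sign. With all 91 rows after a 3′ end it was 0.65. It was 0.66 across 75 rows with no protein match and 3′ ends facing, and 0.24 across 948 coding rows that follow another coding gene. Before a 5′ end it was 0.21 across 23 rows and 0.22 across 1098 coding rows. With 5′ ends facing it was 0.06 across 19 rows and 0.30 across 1326 coding rows. All points share the same 8 libraries and genes are not replicates, so no p is given.

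**Figure D4:**
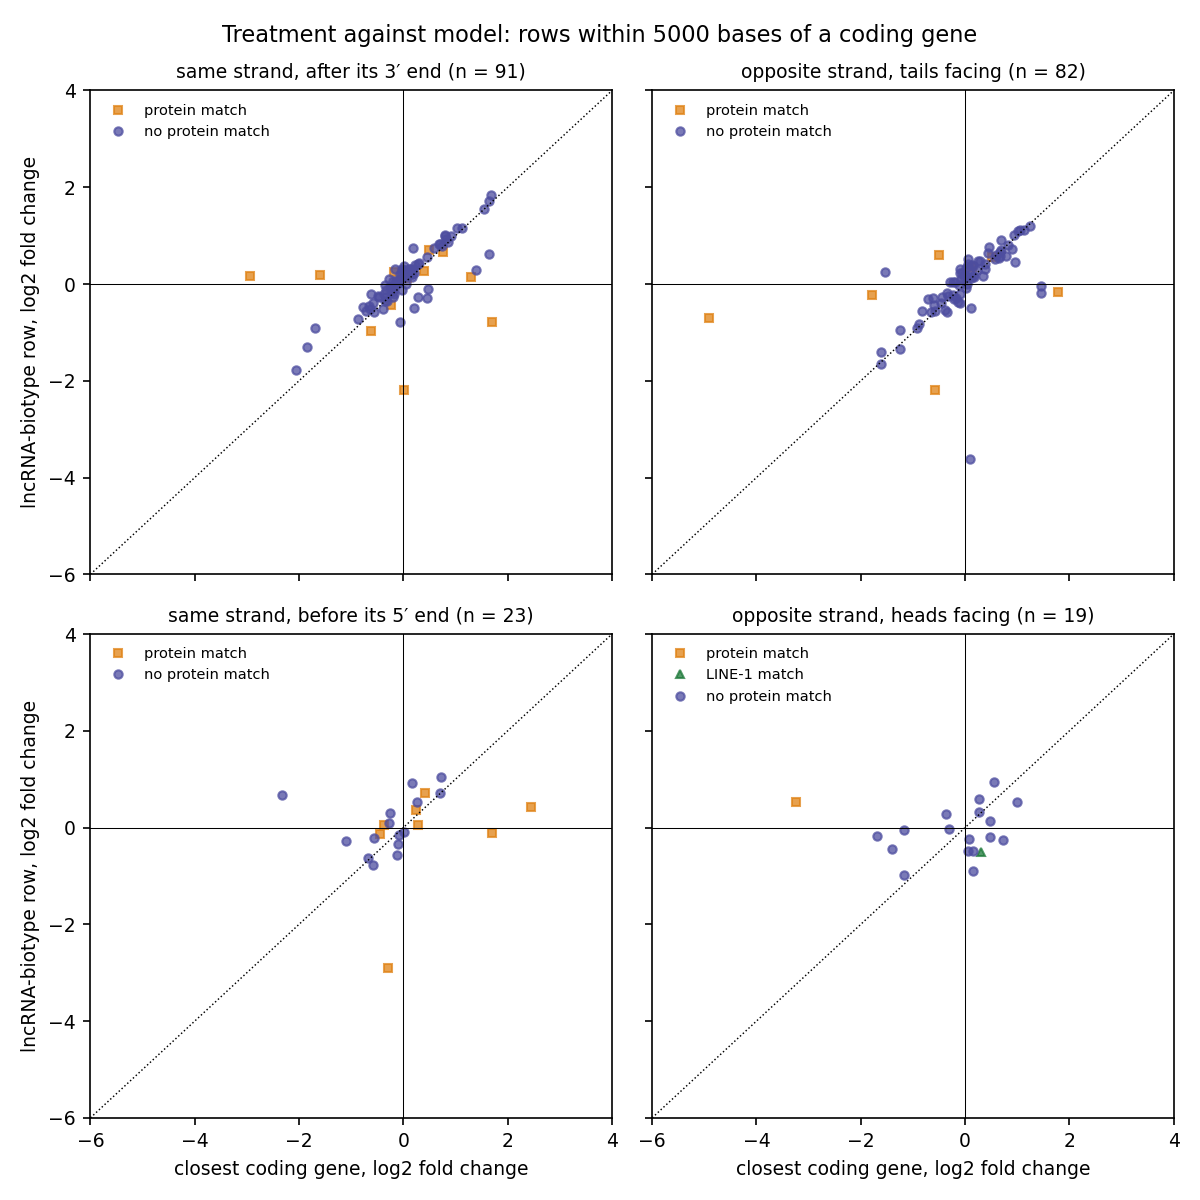
Log2 fold change of each row (vertical) against that of its closest coding gene (horizontal) in treatment against model, in 4 panels by place, for rows within 5000 bases; circles have no protein match, squares a protein match and triangles a LINE-1 match, and the dotted line marks equal change. In both upper panels, where the row lies at the 3′ end of the gene, most circles run along the dotted line and most squares far from 0 lie off it; LOC120099372 is the low circle on the upper right.

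Over the 8 libraries of treatment and model, the log2 values of rows and their nearest coding gene by start gave a median r of 0.47 across 254 pairs, and 35 pairs had r over 0.9. The same values were not computed over coding rows and their neighbours, so these stand as a description. The libraries come from both groups, so differences between the groups enter each r. The 5 highest were the rows beside Fzd4, a Wnt receptor (r = 0.991), LOC120094123 (0.983), Cd34, a surface glycoprotein of endothelium and stromal cells (0.978), Dcbld2, a membrane protein of vessel cells (0.978), and Tead4, a partner of YAP (0.976). None of these 5 rows passed the test. The Fzd4 row, 1382 bases after the 3′ end of Fzd4, had 27.2, 44.4, 20.7 and 22.5 CPM in treatment and 7.80, 86.0, 27.6 and 45.5 CPM in model, where Fzd4 had 45.8, 63.2, 39.3 and 38.8 CPM in treatment and 16.4, 151, 53.6 and 77.0 CPM in model. Model 2 was the highest and model 1 the lowest library of both genes. The 6 endothelial markers summed to 909.6, 890.1, 814 and 746 CPM in treatment and 413, 1622, 790.1 and 905 CPM in model, with the same highest and lowest libraries; their part in these pairs was not tested.

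Model against sham gave no call. By limma 0 of the 272 rows rose or fell, as did 0% of all 20205 genes, and edgeR also called 0. At an unadjusted p under 0.05 limma had 50 of the 272 rows, beside 13% of all genes. edgeR also had 50 of the 272, beside 2873 of all 20205 genes. DESeq2 called 11 rows higher and 5 lower, or 4.04% and 1.84% of the rows, beside 1.27% and 1.72% of all genes. In 16 rows every model library was above every sham library and in 8 below, or 5.88% and 2.94%, against 3.08% and 4.77% of all genes. The median log2 fold change was 0.15 for the rows and 0.03 for all genes. It was 0.14 over 1141 lncRNA rows under the level threshold, so the shift is not particular to the well-measured rows. It was 0.23 over the 213 rows with no protein match and -0.08 over the 55 with a match. Without model 1, limma called 3 higher, beside Tgfbr3, Slfn5 and Lrp6, and 2 lower, ENSRNOG00000062617 and LOC103690810, where 0.317% and 0.52% of all genes were called. Model 1 stood apart from model 2 to 4 in several marker sums. It was the highest in muscle (719 CPM, the others at most 84.8), erythroid (72238 CPM, at most 48047) and dividing-cell markers (2752 CPM, at most 1800.2). It was the lowest in fibroblast (18898 CPM, the others at least 21731) and endothelial markers (413 CPM, at least 790.1). The part of these in the 5 calls was not tested.

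The rows with the smallest p among those higher in model lie after coding genes. The row 891 bases after Tgfbr3, a co-receptor for TGF-β (ENSRNOG00000071035), had 24.9, 52.0, 54.9 and 43.1 CPM in model and 21.8, 17.7, 15.7 and 19.4 CPM in sham. The model libraries were above all sham libraries, model 1 by the least (log2 fold change 1.19 ± 0.25, limma adjusted p = 0.203, and 0.0183 without model 1). The row 5073 bases after Nbeal1 (ENSRNOG00000070271) had 5.61, 14.2, 8.74 and 7.92 CPM in model and 3.20, 3.23, 2.38 and 3.86 in sham (1.46 ± 0.33, adjusted p = 0.203). The row 265 bases after Slfn5, an interferon-induced gene (ENSRNOG00000062350), had 46.0, 157, 83.8 and 79.7 CPM in model and 34.8, 28.3, 36.3 and 43.2 in sham (1.25 ± 0.34, adjusted p = 0.270, and 0.0475 without model 1). The groups of all 3 rows are separate, and model 2 is the highest model library beside Nbeal1 and Slfn5.

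On the lower side stood rows of uneven level. ENSRNOG00000062617, 12869 bases from Mrpl23, a mitochondrial ribosomal protein, with 3′ ends facing, had 0.516, 0, 0 and 0 CPM in model and 3.01, 7.91, 0.940 and 5.91 in sham. It was listed at 0 in 3 model libraries, and its log2 fold change of -4.99 ± 0.92 depends on the pseudocount (adjusted p = 0.203). In treatment it had 0, 34.0, 0.755 and 1.78 CPM, so the value of treatment 2 stands alone. LOC103690810, a LINE-1 match, had 0.0605, 90.2, 0.465 and 4.73 CPM in treatment, 4.13, 0.245, 0.0624 and 0.184 in model and 6.39, 44.7, 3.89 and 43.2 in sham, with model 1 above sham 3. LOC102553350, which starts 231 bases from Mylk2, the myosin light chain kinase of skeletal muscle, with 5′ ends facing, had 0, 21.2, 0.348 and 1.07 CPM in treatment, 1.48, 0.430, 0.812 and 1.41 in model and 2.95, 13.0, 1.63 and 10.2 in sham. Treatment 2, sham 2 and sham 4, rich in muscle markers, are the 3 highest libraries in all 3 rows. These rows passed the level threshold through those libraries. The part of muscle RNA was not tested.

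Timm13 and the row matched to Cox14 followed on the lower side by p, and neither passed the test. Timm13 had 54.5, 31.4, 46.7 and 59.3 CPM in model and 91.6, 69.2, 72.3 and 64.1 in sham, without overlap (-0.64 ± 0.19, adjusted p = 0.301). The row matched to Cox14, an assembly factor of cytochrome c oxidase (ENSRNOG00000067873), had 38.2, 41.1, 35.2 and 43.6 CPM in model and 57.2, 54.5, 46.8 and 57.0 in sham, also apart (-0.43 ± 0.13, adjusted p = 0.295). Of the 7 rows matched to mitochondrial proteins 6 had a negative fold change, between -0.64 and 0.25 over the 7. Negative fold changes made up 30 of the 55 rows with a protein match and 47.4% of all genes. None of the 7 passed the test, and the group was not tested.

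The same count was made in model against sham. The sign was the same for 158 of 248 rows (63.7%) by nearest start, and for 7583 of 13582 coding rows (55.8%). The correlation of log2 fold changes was 0.23 across these rows and 0.15 across these coding rows. By closest gene body the sign was the same for 179 of 263 rows (68.1%), and for 6605 of 11725 coding rows (56.3%). After a 3′ end 70 of 91 rows (76.9%) shared the sign, and the correlation across the 79 with no protein match was 0.79, against 0.24 across 946 coding rows. With 3′ ends facing 59 of 82 (72.0%) shared it, with a correlation of 0.46 across the 75 with no protein match. Before a 5′ end 14 of 23 (60.9%) shared it, with 0.32 across 15. Over coding rows the shares were 59.8% after a 3′ end and 56.7% with 3′ ends facing. They were 56.8% before a 5′ end and 59.7% with 5′ ends facing. These differences were not tested. The highest correlation, 0.90, was across the 17 rows with no protein match and 5′ ends facing, where 9 of the 17 (52.9%) shared the sign. One pair there, LOC102553350 (-2.35) and Mylk2 (-2.48), lay far from the rest. The other coding genes with 5′ ends facing lay between -0.53 and 0.61. How far the correlation rests on that pair was not tested. In treatment against model the correlation across these 17 rows was 0.41. Model against sham shares the model libraries with treatment against model, so the values stand side by side only.

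Treatment against sham is described only, because its libraries chose the rows. Past the same threshold 68 rows were higher (25.0%) and 43 lower (15.8%), beside 17.3% and 19.5% of all genes; without treatment 2, sham 2 and sham 4 the counts were 42 and 19, beside 9.69% and 12.9% of all genes. The highest log2 fold changes were 3.48 for the row beside Col8a1, 2.99 for ENSRNOG00000070065, 8890 bases from Vcan, the proteoglycan versican, and 2.85 for the row beside Col5a1. ENSRNOG00000070065 had 0.846, 22.1, 5.17 and 5.09 CPM in treatment and 0, 19.5, 0.0627 and 1.17 in sham, high in treatment 2 and sham 2 and overlapping between groups. The lowest were -5.36 for the RPS24 match, -5.10 for the LINE-1 match ENSRNOG00000062599, -4.85 for the row near Bach2, -4.48 for the row after Tamalin and -4.18 for LOC120099372. By nearest start 161 of 251 rows (64.1%) had the sign of their neighbour, and 7753 of 13647 coding rows (56.8%) did. The correlation of log2 fold changes was 0.23 across these rows and 0.30 across these coding rows.

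**Figure D5:**
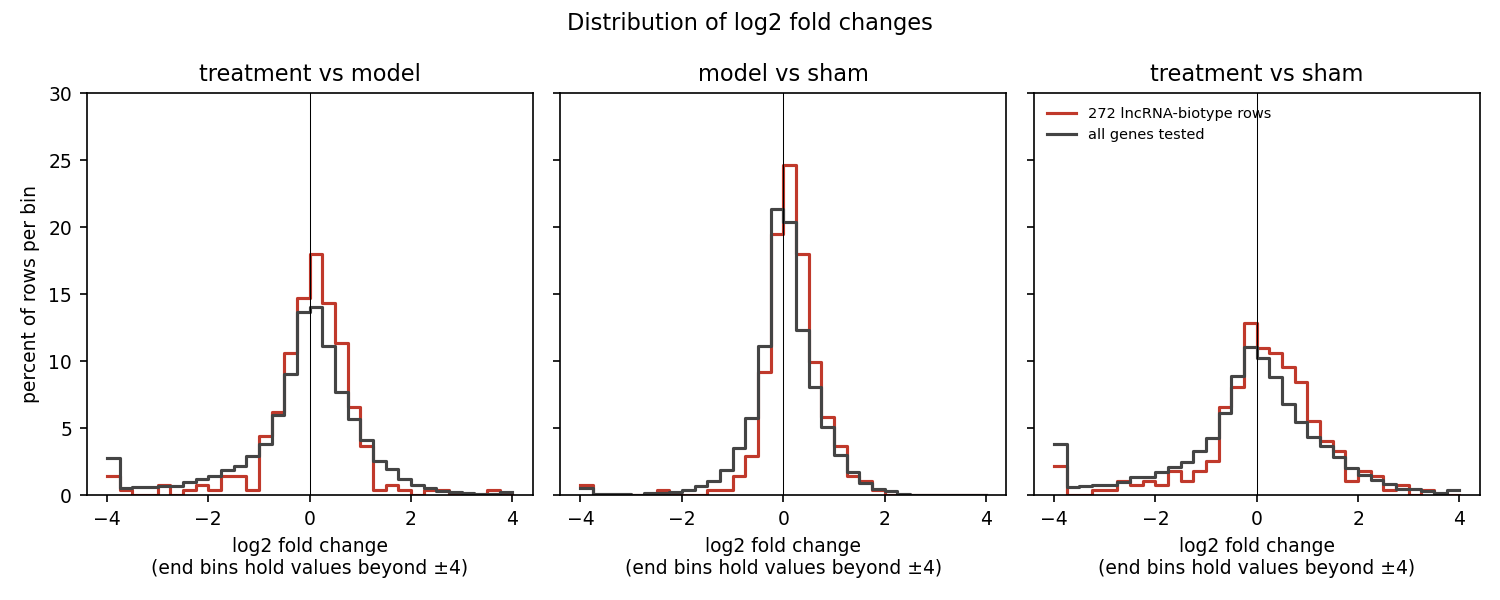
Percent of rows (vertical) in bins of log2 fold change 0.25 wide (horizontal) for the 272 lncRNA-biotype rows (red) and all genes tested (dark grey), in treatment against model, model against sham and treatment against sham. In model against sham the red line is shifted right, with a median of 0.15 for the rows and 0.03 for all genes, and in treatment against model the medians are 0.10 and 0.02. The 1141 lncRNA rows under the threshold, not drawn, had a median of 0.14 in model against sham.

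The authors' deposited tables, which use their own test, hold an adjusted p under 0.05 for 18 higher and 27 lower rows of the 272 in treatment against model (8.24% and 13.2% of all genes with an adjusted p in that table). The authors' deposited tables hold 11 and 4 such rows in model against sham (1.14% and 1.53% of all genes), and 73 and 44 in treatment against sham (17.9% and 18.1%).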

How the data were processed

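The authors deposited 1 table of 8 libraries for each comparison. Their expression values are a normalised signal, in which reads per gene were divided by a size factor per library, as read off the values: 100% of deposited values were whole multiples of 1 step within 0.001 reads, so whole reads were recovered for CPM and for count tests. The deposited log2 fold changes and p-values of the authors were used only for the last sentence of the results. RNA came from Trizol and libraries from the VAHTS Universal V5 kit (per the labels); per the submitters' processing notes, fastp and DESeq2 were used on mRatBN7.2; what aligned and counted the reads, and with which annotation, is not given in the sources used here.

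Each comparison was fitted in its own table with limma 3.58.1 in R 4.3.3 (trend and robust) on log2(value + 1), leaving out genes whose mean was under 1, adjusted by Benjamini-Hochberg over all genes. All 272 rows passed this filter in each table. edgeR 4.0.16 (quasi-likelihood) and DESeq2 1.42.0 on recovered reads were alternatives. The tests were checked on simulated data. The members and lists were chosen with earlier results of these data known. Named are rows with the highest level per length, the highest and lowest called fold changes, the smallest p where nothing was called, and rows most like their nearest coding gene; of rows known only by ID, at most 3 each way per comparison are named, except as said in the text. IDs with a protein match were treated as annotated, which was decided after seeing the table, as was the use of the closest gene body. CPM and figures use recovered reads.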

Additional observations from a re-analysis of the deposited data

Results flagged for a closer look

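Of 114 groups of 4 libraries in the 38 named rows, 11 held a library far from the other 3 by Dixon's test at its 95% critical value, and chance flags about 5% of groups. Treatment 2 stood apart in 5 rows: Rnf26 at 11.4 CPM (the others 20.0 to 21.3), ENSRNOG00000065287 at 1.53 CPM (0.0592 to 0.242), ENSRNOG00000062617 at 34.0 CPM (0 to 1.78), LOC103690810 at 90.2 CPM (0.0605 to 4.73) and LOC102553350 at 21.2 CPM (0 to 1.07). Treatment 2 also had 41665 CPM of muscle markers, against 110 to 3261 in treatment 1, 3 and 4, and the part of muscle RNA in these values was not tested. Sham 2, with 32130 CPM of muscle markers, stood apart in ENSRNOG00000070065 at 19.5 CPM (0 to 1.17).

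Model 1 was highest in ENSRNOG00000062617 at 0.516 CPM (0 in the others) and in LOC103690810 at 4.13 CPM (0.0624 to 0.245). Sham 1 stood above the other sham libraries in Rhob at 223 CPM (80.5 to 99.3) and in LOC120098113, the row of miR-143 and miR-145, at 19.5 CPM (4.37 to 4.58). Sham 3 was highest in ENSRNOG00000064143, beside Rflnb, at 89.5 CPM (64.0 to 67.3).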

How the results depend on the processing

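The count of rows past the test depended on the tool and on single libraries. Of 53 fold changes of called or named genes that were refitted under these alternatives, 50 kept their sign in all of them. The exceptions, none past the test, were in treatment against model: LOC120098113 (-0.050 by edgeR, -0.046 by DESeq2, and -0.28 to 0.94 leaving out 1 library), Vsig4 (-0.35 without the muscle-rich libraries, and -0.35 to 1.21 leaving out 1 library) and Tamalin (-0.28 to 0.12 leaving out 1 library). In treatment against model DESeq2 called 20 higher and 29 lower, with all 22 limma calls among them, and edgeR shared 19 of the 22. No filter on low values gave 2 higher, and the share of all genes called in that fit is not at hand. Leaving out the muscle-rich libraries, which here is treatment 2, also gave 2 higher (16 of the 22 calls shared), beside 3.71% of all genes. Leaving out 1 library at a time gave 0 to 18 higher and 11 to 29 lower. A level threshold of 200 gave 11 lower from 176 rows, in the fit where 10.5% of all genes fell. The 213 rows with no protein or LINE-1 match gave 9 lower; the others were 7 of the 55 rows with a protein match and 2 of the 4 LINE-1 rows. In model against sham DESeq2 called 11 higher and 5 lower, and leaving out 1 library gave 0 to 3 higher and 0 to 2 lower. In treatment against sham, leaving out treatment 2, sham 2 and sham 4 gave 42 higher and 19 lower (9.69% and 12.9% of all genes), with fewer libraries. The share of rows with the sign of their neighbour in treatment against model was 73.0% with the closest gene body. The cause was not tested for the other changes.

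Replicate numbers are shared between groups, but same-numbered libraries did not deviate together (correlations of -0.11, 0.08, 0.14 and 0.05 for numbers 1 to 4 in treatment against model, -0.44 to 0.07 in model against sham and -0.03 to 0.24 in treatment against sham). With the replicate number as a block, limma called 2 higher and 17 lower in treatment against model (17 of the 22 calls shared). It called 0 and 0 in model against sham, and 57 and 36 in treatment against sham. The share of all genes called with the block is not at hand, so these counts stand without it. Leaving out overlapping pairs changed nothing, since no row overlaps a coding gene.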
